A study of Homo sapiens with 8 samples.

Results

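The genes described here are 47 genes of fat oxidation in HepG2, a human cell line from a hepatocellular carcinoma: 21 of mitochondrial fat oxidation, 10 of peroxisomal oxidation, 2 ketone body enzymes, 2 transcriptional regulators and 12 PEX genes, whose products, the peroxins, build peroxisomes. They were listed by symbol for their role in the pathway, with earlier results of these data known, and are part of 38032 gene identifiers in the files. A floor of 10 counts, to be reached in no fewer than 2 of 8 libraries, left 45 of the 47 genes to be tested, among 13943 genes in all. Wild-type cells of one pool had been propagated on flat plastic, and were then primed for 8 days either on flat tissue culture plastic (2D-primed, 4 libraries) or on the surface of the porous polystyrene scaffold Alvetex (3D-primed, 4 libraries). Cells were released with trypsin and polyadenylated RNA was sequenced. The labels describe 6-well inserts, which were seeded with more cells than the 2D-primed wells, and for such inserts substrate and seeding density cannot be told apart. All libraries come from 1 tumour-derived line, and the question addressed was how the priming substrate alters expression in it.

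Fat oxidation starts when long-chain fatty acids are coupled to coenzyme A and carried into mitochondria as carnitine esters. There they are shortened in repeated cycles of dehydrogenation, hydration, a further dehydrogenation and thiolysis, and the electrons of the first step leave through the electron transfer flavoprotein. Peroxisomes shorten very long and branched chains and bile acid precursors with their own enzymes, and the liver turns surplus acetyl-CoA into ketone bodies.

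Values are given as CPM, the counts of a gene scaled to a common library size after edgeR's TMM normalisation. Log2 fold changes are 3D-primed over 2D-primed with their standard error (SE), and a gene was called higher or lower at a Benjamini-Hochberg adjusted p below 0.05 in edgeR's quasi-likelihood test over all genes tested. The libraries held 21599630 to 27844077 counts. Of the hepatocyte markers, 8 of 8 were tested, and their summed level was 68976 to 75051 CPM in 2D-primed and 96484 to 108487 CPM in 3D-primed libraries. Most of the rise in this sum came from ALB and AFP, which were called higher, whereas APOB (-0.25) and SERPINA1 (-0.14) were called lower. Several defining markers of other cells were near 0: 4 of 6 fibroblast, 2 of 6 endothelial and 3 of 6 leukocyte markers had under 10 counts in every library, including COL1A2, STAB2 and PTPRC. The summed levels of these lists ran from 11 to 12.2 CPM in 2D-primed and 15.1 to 18.1 CPM in 3D-primed libraries for fibroblasts, from 5.79 to 8.14 and from 4.41 to 5.91 CPM for endothelium, and from 2194 to 2286 and from 2421 to 3027 CPM for leukocytes, the last nearly all from LYZ. Within these lists PDGFRB, VWF, LYZ and CD14 were called higher, and COL1A1, CDH5 and CD68 lower. The part of these shifts in the results was not tested. In bulk RNA, fewer cells of a kind and less RNA per cell cannot be told apart.

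Most genes of mitochondrial fat oxidation were higher in 3D-primed cells, but the gene at its entry, the main very-long-chain dehydrogenase and one electron carrier subunit were lower. Of the 45 genes tested, 24 were called higher and 8 lower, and 13 did not pass the test. Over all genes tested, 63.9% were called, 32.4% higher and 31.6% lower, so that 71.1% of the members stand beside a background of 63.9%. The members were called higher in 53.3% and lower in 17.8% of cases. Their median log2 fold change was 0.17, against 0.01 for all genes tested, and their median absolute log2 fold change was 0.34, the same as for all genes. The 2 groups did not overlap for 31 members, beside 59.8% of all genes tested. Differences were of modest size, with 43 of the 45 genes within 1 log2 unit.

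**Figure D1:**
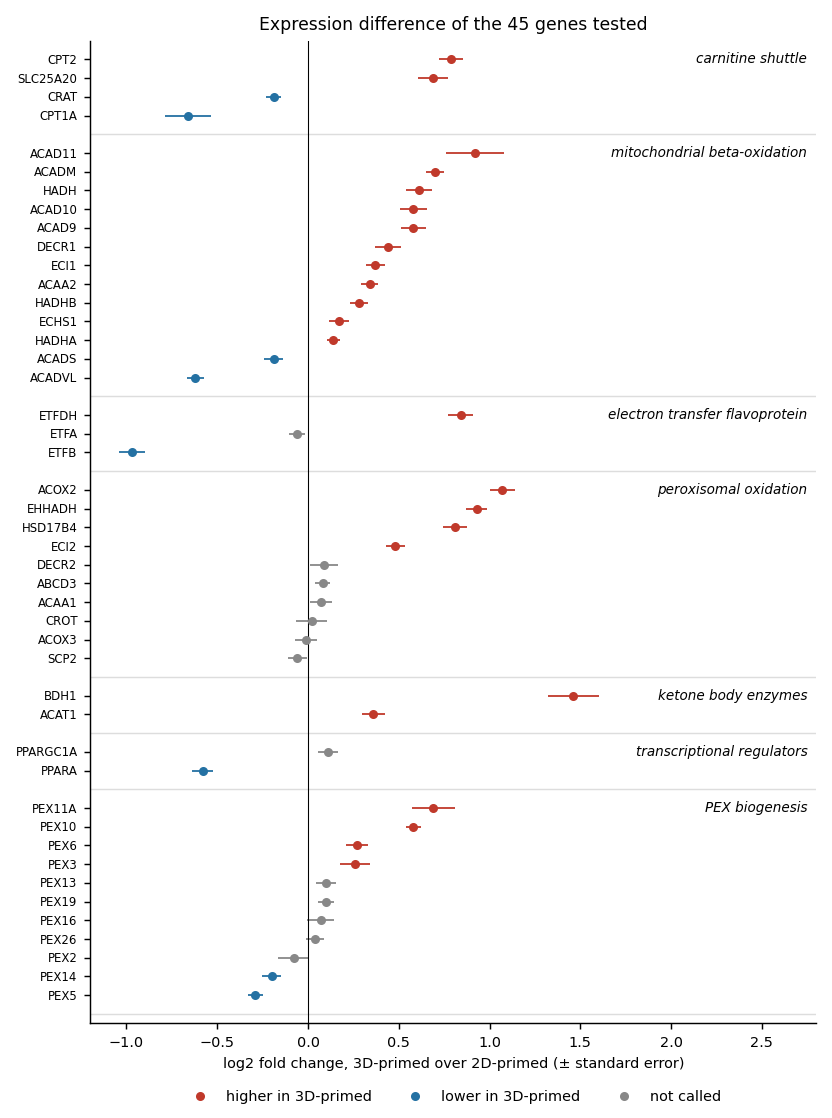
Log2 fold change of each of the 45 genes tested, 3D-primed over 2D-primed, with its standard error as a horizontal bar. Genes are grouped by role, red points were called higher, blue points lower and grey points did not pass the test. The points run from -0.97 for ETFB to 1.46 for BDH1.

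The carnitine shuttle moved in opposite directions at its start and at its end. CPT1A, the outer-membrane enzyme that makes acylcarnitines and sets the rate of entry, was at 86.8, 87.1, 95.4 and 90.1 CPM in 2D-primed replicates 1 to 4 and at 51.7, 56.1, 74.7 and 45.3 CPM in 3D-primed replicates 1 to 4. All 2D-primed values lay above all 3D-primed values, and 3D-primed replicate 3 lay closest to the 2D-primed group. The log2 fold change of CPT1A was -0.66 (SE 0.125, adjusted p = 9.8e-04), and it was -0.82 without that library. CPT2, the inner-membrane enzyme that returns the acyl group to coenzyme A, was at 19.5, 17.5, 19.9 and 17.7 CPM in 2D-primed cells and at 34.3, 33.9, 31.9 and 29.2 CPM in 3D-primed cells. The CPT2 groups did not overlap, and the log2 fold change was 0.79 (SE 0.0663, adjusted p = 3.1e-06). SLC25A20, the carrier that exchanges acylcarnitine for carnitine across the inner membrane, went the same way as CPT2: it was at 9.58, 11.2, 10.9 and 11.2 CPM in 2D-primed and at 19.2, 16.6, 15.4 and 18.1 CPM in 3D-primed libraries. Every 3D-primed library was above every 2D-primed one (log2 fold change 0.69, SE 0.0818, adjusted p = 3.5e-05). CRAT, which handles acetyl and other short groups, was at 69.7, 70.8, 66.8 and 66.2 CPM and then at 62.5, 56.6, 60.7 and 60.1 CPM. Its decrease was small though the groups did not overlap (log2 fold change -0.19, SE 0.042, adjusted p = 0.0026), and the call was lost when GC content and transcript length were adjusted for (-0.08, adjusted p = 0.10). Per kilobase of transcript, the ratio of CPT1A to CPT2 was 2.49 ± 0.144 (SD, n = 4) in 2D-primed libraries and 0.909 ± 0.201 (SD, n = 4) in 3D-primed ones. The ratio was 0.777, 0.853, 1.21 and 0.799 in the 3D-primed replicates, so replicate 3 alone stayed above 1. Summed per kilobase over the 4 shuttle genes, the level was 54.8 ± 0.789 in 2D-primed against 54.3 ± 2.49 CPM per kb in 3D-primed libraries, which overlapped.

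The upstream sequences of CPT1A and CPT2 are shown because these neighbouring steps moved in opposite directions. They are RefSeq promoter windows on GRCh38.p14, cut to the stretch that lies in no annotated exon, written 5′ to 3′ on the strand of the gene. Capitals mark the letters GGGCGG, the GC box bound by Sp-family factors, on either strand. The CPT1A stretch is chr11:68844411-68844527 (minus strand, 117 bases, 32.5% G or C) and the CPT2 stretch is chr1:53196574-53196791 (plus strand, 218 bases, 63.8% G or C).
CPT1A: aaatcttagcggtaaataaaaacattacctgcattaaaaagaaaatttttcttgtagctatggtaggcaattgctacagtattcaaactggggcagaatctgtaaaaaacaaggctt
CPT2: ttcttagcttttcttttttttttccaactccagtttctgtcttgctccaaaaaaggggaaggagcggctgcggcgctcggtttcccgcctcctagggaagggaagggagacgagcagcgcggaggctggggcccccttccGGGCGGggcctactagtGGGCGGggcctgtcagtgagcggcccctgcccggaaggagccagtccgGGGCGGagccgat
The CPT2 stretch holds 3 GC boxes and the CPT1A stretch holds none of these letters, nor does the whole 250-base window of CPT1A. The printed stretches differ in length and in distance from the RefSeq start. Both RefSeq starts lie inside the annotated span of their gene, and which start these cells use was not tested. Among members with a window, 16 of 19 called higher and 5 of 6 called lower hold a GC box. Whether the box bears on the direction of change was not tested.

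In the spiral of mitochondrial beta-oxidation itself, all 13 genes tested were called, 11 higher and 2 lower, beside 63.9% of all genes called. Their median log2 fold change was 0.37. The 2 lower genes were both acyl-CoA dehydrogenases, the enzymes of the first step, which differ in the chain length they take. ACADVL, for very long chains, was at 218, 217, 206 and 227 CPM in 2D-primed replicates and at 146, 135, 147 and 136 CPM in 3D-primed replicates. The groups lay far apart, with a log2 fold change of -0.62 (SE 0.0449, adjusted p = 1.2e-06). ACADM, for medium chains, was at 58.3, 56.4, 58 and 60.1 CPM in 2D-primed libraries and at 101, 97.1, 87.5 and 92.5 CPM in 3D-primed libraries, again without overlap but in the other direction. Its log2 fold change was 0.70 (SE 0.0485, adjusted p = 8.8e-07), and 0.42 when GC content and length were adjusted for. The ratio of ACADVL to ACADM per kilobase was 3.86 ± 0.128 in 2D-primed against 1.55 ± 0.127 in 3D-primed libraries (SD, n = 4 each). ACADS, for short chains, was lower by a small margin (log2 fold change -0.19, SE 0.0536, adjusted p = 0.0091), with 42.9 to 45.9 CPM in 2D-primed and 36.1 to 42.7 CPM in 3D-primed libraries.

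The other tested members of the acyl-CoA dehydrogenase family were higher. ACAD11 was at 11.9, 8, 7.2 and 11.7 CPM in 2D-primed and at 16.3, 17.8, 21.7 and 17.4 CPM in 3D-primed libraries. It had the widest relative spread of the family in 2D-primed cells and the groups still did not overlap (log2 fold change 0.92, SE 0.162, adjusted p = 5.9e-04). ACAD9, which also takes part in assembly of respiratory complex I, and ACAD10 both had a log2 fold change of 0.58, with adjusted p of 3.4e-05 and 7.2e-05. ACAD10 overlaps a gene without a symbol that took 2479 counts over all libraries beside 3212 for ACAD10, and the split of reads between them is uncertain. ACAD11, ACADM, DECR2, PEX11A and PEX19 also overlap another expressed gene on their strand. ACADL, the long-chain dehydrogenase, had 0 to 4 counts a library and was not tested.

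The tested genes of later steps of the spiral were all called higher, by 0.14 to 0.61 on the log2 scale. HADHA, a subunit of the trifunctional protein and the beta-oxidation gene with the highest level per kilobase, was at 333, 340, 338 and 332 CPM in 2D-primed and at 384, 363, 360 and 372 CPM in 3D-primed libraries. The groups did not overlap, and the log2 fold change was only 0.14 (SE 0.0351, adjusted p = 0.0053). HADHB, its partner subunit, had 136 to 150 CPM against 163 to 188 CPM (log2 fold change 0.28, SE 0.0511, adjusted p = 7.0e-04), and its call was lost under the GC and length adjustment (0.10, adjusted p = 0.073). The ratio of the subunits per kilobase was 1.58 ± 0.0803 in 2D-primed against 1.43 ± 0.0481 in 3D-primed libraries, and these ratios overlapped. HADH, the dehydrogenase for short hydroxyacyl chains, changed more: it was at 36.5, 37.5, 33 and 37.5 CPM in 2D-primed and at 61.6, 56.4, 48.6 and 54.6 CPM in 3D-primed libraries. The HADH groups were apart (log2 fold change 0.61, SE 0.0722, adjusted p = 3.4e-05). The thiolase ACAA2 (0.34), the isomerase ECI1 (0.37) and the reductase DECR1 (0.44), the last pair serving unsaturated chains, were called higher, with adjusted p from 1.1e-04 to 3.1e-04, and DECR1 stood at 0.22 under the GC and length adjustment. ECHS1, the short-chain hydratase, was called higher by 0.17 (SE 0.0555, adjusted p = 0.019), but its groups overlapped, and the call was lost under that adjustment (0.11, adjusted p = 0.079) and in 3 of 8 fits that left out 1 library. Those libraries were 2D-primed replicate 3 and 3D-primed replicates 1 and 4, and the log2 fold changes without them were 0.16, 0.13 and 0.15. Summed per kilobase, the 13 genes stood at 519 ± 13 CPM per kb in 2D-primed and at 574 ± 26.2 CPM per kb in 3D-primed libraries.

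HADHA and HADHB are transcribed away from each other on chromosome 2, and both were called higher by a small amount, so part of the sequence between them is shown. The RefSeq starts used here have 306 bases between them, whereas in GENCODE a longer form of HADHB begins further upstream, so that the annotated spans overlap. The stretch chr2:26244673-26244747 of GRCh38.p14 lies in no annotated exon of either gene and is written on the plus strand, the strand of HADHB. It is 75 bases long, with 70.7% G or C, and holds no GC box, so no letters are in capitals. The part between the RefSeq starts that is not printed, because some transcripts of HADHB place an exon there, holds 2 GC boxes.
HADHA-HADHB: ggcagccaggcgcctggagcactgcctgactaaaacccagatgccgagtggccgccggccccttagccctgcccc
RefSeq windows of the 250 bases before a start were found for 37 of the 47 genes, and 31 of them (83.8%) hold GGGCGG on either strand in at least 1 window, beside 46.2% of 27305 genes with a window. The 27305 are all genes with a window, whether or not tested here, whereas most of the 37 members were tested. Of the 19 called-higher genes with a window, 16 hold it, and of the 6 called-lower genes with a window, 5. AGGTCA, the half-site that PPARA and other nuclear receptors bind, was found in 1 of the 37 (ACAD10), beside 14.6% of all genes, and its direct repeat with 1 base between in none, beside 0.022%. CACGTG, the E-box, was in 3 (8.11%, beside 7.73%), CCAAT in 11 (29.7%, beside 37%), TGACGTCA in 2 (5.41%, beside 2.03%) and TCAAGGTCA, which contains the half-site, in none (beside 0.388%). These are matches of letters in one short window and say nothing of binding.

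The electron transfer flavoprotein had the most divergent members. ETFB, the beta subunit, had the highest level per kilobase of all members in both groups. It was at 643, 723, 802 and 748 CPM in 2D-primed and at 402, 375, 372 and 343 CPM in 3D-primed libraries. The groups did not overlap, and ETFB had the largest decrease of the tested members, with a log2 fold change of -0.97 (SE 0.0702, adjusted p = 1.2e-06). ETFA, the alpha subunit, with which it forms a heterodimer, was at 150, 146, 150 and 152 CPM and at 152, 146, 135 and 140 CPM, and these groups overlapped. ETFA did not pass the test (log2 fold change -0.06, SE 0.0427, adjusted p = 0.22), although it did under the GC and length adjustment (-0.23, adjusted p = 1.5e-04). ETFDH, the oxidoreductase that passes the electrons on to ubiquinone, rose. It was at 10.1, 9.6, 8.83 and 8.99 CPM in 2D-primed and at 18.5, 15.9, 16.1 and 16.7 CPM in 3D-primed libraries, without overlap (log2 fold change 0.84, SE 0.0707, adjusted p = 3.2e-06). Per kilobase, ETFB exceeded ETFA by a ratio of 12.8 ± 1.16 in 2D-primed against 6.84 ± 0.333 in 3D-primed libraries. The fall of ETFB also set the sum over all mitochondrial members, which was 1478 ± 70.8 CPM per kb in 2D-primed against 1124 ± 51.3 CPM per kb in 3D-primed libraries, although 14 of the 20 tested were called higher and 5 lower. Of these 20, 95% were called, beside 63.9% of all genes. Their median log2 fold change was 0.36, and 0.23 under the GC and length adjustment.

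**Figure D2:**
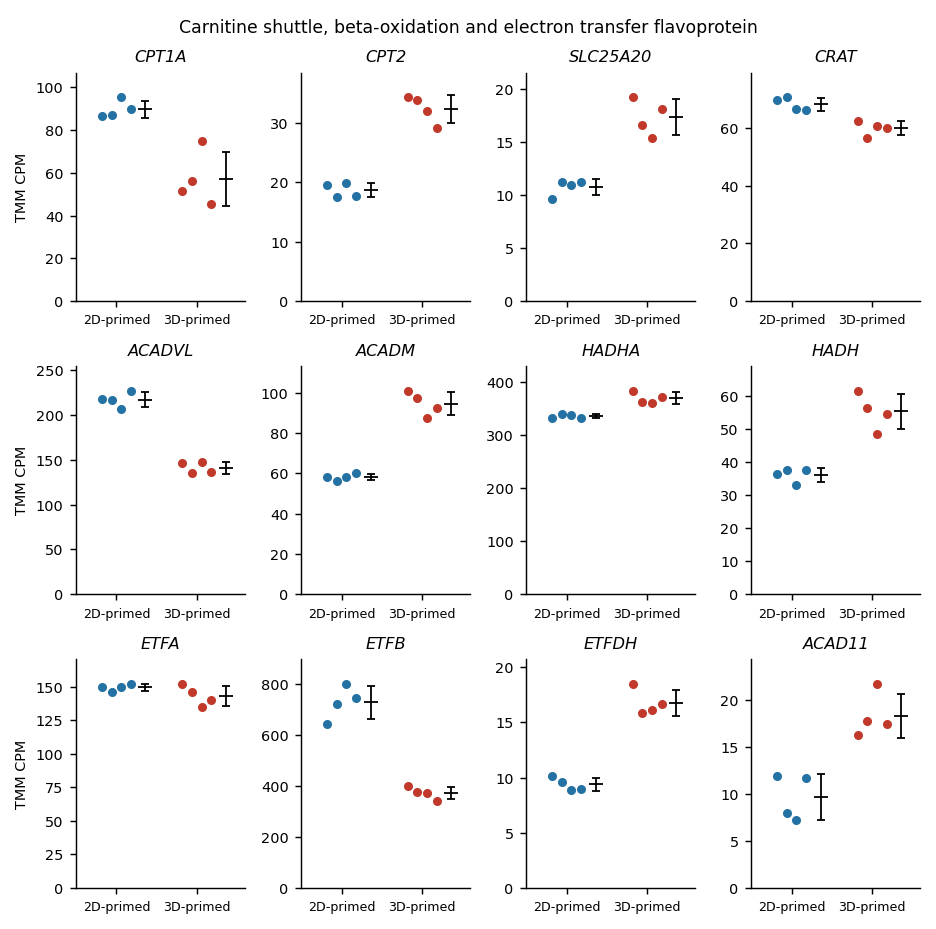
TMM CPM of 12 mitochondrial genes in each library, 2D-primed in blue and 3D-primed in red, each axis starting at 0, with the mean and SD of 4 libraries in black. CPT1A, CRAT, ACADVL and ETFB lie lower in all 3D-primed libraries, ETFA overlaps, and the other 7 lie higher.

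Peroxisomal oxidation was split between enzymes that rose clearly and enzymes that showed little difference. Of 10 genes, 4 were called higher, none lower, and 6 did not pass the test, which is 40% called beside the 63.9% of all genes. The median log2 fold change was 0.08. In the adjusted fit SCP2 was called lower (-0.24, adjusted p = 0.0023), against -0.06 (adjusted p = 0.31) without adjustment. ACOX2, the oxidase of branched chains and bile acid intermediates, was at 16.4, 16.5, 13.5 and 16.3 CPM in 2D-primed and at 33.8, 34.4, 32.5 and 31.1 CPM in 3D-primed libraries. Every 3D-primed value was well above the 2D-primed values, and the log2 fold change was 1.07 (SE 0.0698, adjusted p = 5.9e-07).

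The bifunctional enzymes of the next steps rose together. EHHADH, the L-bifunctional protein, was at 32.9, 31.9, 29.3 and 33.5 CPM in 2D-primed and at 65.5, 61.1, 56.2 and 59.7 CPM in 3D-primed libraries. Its groups lay apart, with a log2 fold change of 0.93 (SE 0.0582, adjusted p = 4.7e-07). HSD17B4, the D-bifunctional protein that also serves bile acid synthesis, was at 119, 127, 106 and 131 CPM and at 219, 211, 197 and 220 CPM. It too was higher in all 3D-primed libraries (log2 fold change 0.81, SE 0.0673, adjusted p = 3.0e-06). ECI2, an isomerase for unsaturated chains, was at 100, 98.4, 103 and 108 CPM and at 154, 145, 132 and 140 CPM. The ECI2 groups did not overlap, and the log2 fold change was 0.48 (SE 0.0527, adjusted p = 2.1e-05), or 0.29 with GC and length adjusted for.

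The thiolases that close the peroxisomal cycle did not pass the test. ACAA1, the list's highest gene per kilobase over both groups, was at 157, 166, 157 and 164 CPM in 2D-primed and at 192, 166, 162 and 156 CPM in 3D-primed libraries. The groups overlapped, with only 3D-primed replicate 1 standing above the rest (log2 fold change 0.07, SE 0.0617, adjusted p = 0.37), and without that library the sign turned (-0.01). SCP2, whose long form is the thiolase for branched chains, had 122 to 136 CPM and 118 to 136 CPM. The half-transporter ABCD3 had 105 to 110 and 106 to 117 CPM (log2 fold change 0.08, adjusted p = 0.13), ACOX3 12.1 to 13.8 and 12.7 to 13.4 CPM, DECR2 13.2 to 16 and 14.3 to 16.6 CPM, and CROT, which makes medium-chain acylcarnitines for export, 8.73 to 10.4 and 8.57 to 10.4 CPM. Their groups overlapped, and the log2 fold changes of ACOX3, DECR2 and CROT were -0.01, 0.09 and 0.02. The sign for ABCD3, ACOX3 and CROT changed with the scaling or adjustment. Summed per kilobase, the 10 genes stood at 325 ± 9.09 CPM per kb in 2D-primed against 409 ± 22.9 CPM per kb in 3D-primed libraries, a ratio of 1.26.

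Both ketone body enzymes were higher in 3D-primed cells. BDH1, which interconverts acetoacetate and beta-hydroxybutyrate, was at 6.64, 9.16, 7.33 and 10.5 CPM in 2D-primed and at 27.5, 20.7, 21.9 and 22.4 CPM in 3D-primed libraries. The lowest 3D-primed value lay above the highest 2D-primed value, and the log2 fold change of 1.46 was the largest among the tested members (SE 0.14, adjusted p = 7.8e-06). ACAT1, the mitochondrial acetoacetyl-CoA thiolase, was at 65.6, 65.6, 57.1 and 62.2 CPM and at 87.9, 83, 73.5 and 78.2 CPM. It was higher in every 3D-primed library (log2 fold change 0.36, SE 0.064, adjusted p = 5.6e-04), though by 0.15 with GC and length adjusted for.

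Of the other ketone body genes, 8 of 9 were tested, 3 were called higher and none lower, which is 37.5% called beside 63.9% of all genes. OXCT1, which starts the use of ketone bodies and is low in liver, had 1.98 to 2.29 and 3.26 to 4.65 CPM (log2 fold change 0.81, SE 0.151, adjusted p = 8.6e-04).

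Of the 2 regulators, 1 was called lower and 1 did not pass the test, and their bearing on the enzymes was not tested. PPARA, the nuclear receptor that drives many genes of fat oxidation in liver, was at 117, 134, 125 and 123 CPM in 2D-primed and at 85.9, 75.8, 86.9 and 85.5 CPM in 3D-primed libraries. Its groups did not overlap, and PPARA was lower in 3D-primed cells, with a log2 fold change of -0.58 (SE 0.0567, adjusted p = 9.1e-06), or -0.38 with GC and length adjusted for. PPARGC1A, a coactivator of mitochondrial genes, was at 35, 35.9, 34.4 and 36.5 CPM and at 39.8, 38.3, 41.1 and 34.2 CPM. Replicate 4 of the 3D-primed group lay below all 2D-primed values and the other 3 lay above them, and PPARGC1A did not pass the test (log2 fold change 0.11, SE 0.0566, adjusted p = 0.10). It passed without that library (0.17, adjusted p = 0.0092) and with total counts or the upper quartile as scaling.

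**Figure D3:**
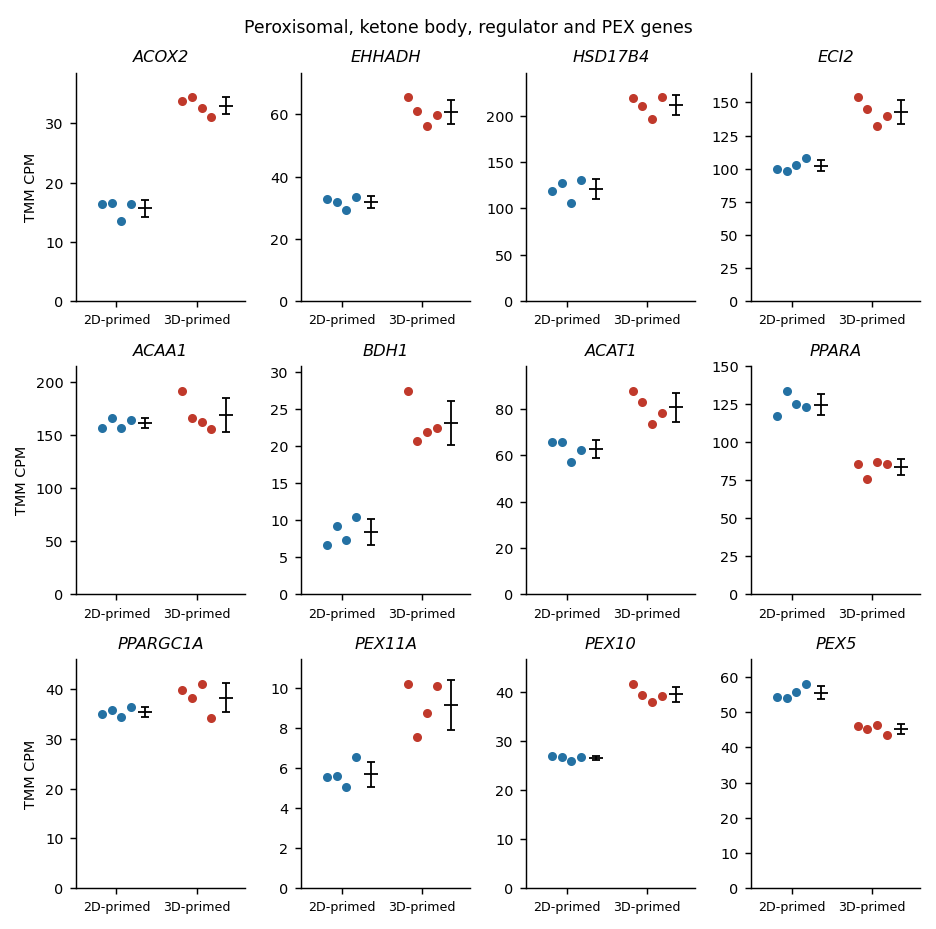
TMM CPM of 12 peroxisomal, ketone body, regulator and PEX genes in each library, 2D-primed in blue and 3D-primed in red, each axis starting at 0, with the mean and SD of 4 libraries in black. PPARA and PEX5 lie lower in all 3D-primed libraries, and ACAA1 and PPARGC1A overlap.

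The peroxins showed small differences in both directions. Of 12 PEX genes 11 were tested, 4 were called higher, 2 lower and 5 did not pass, which is 54.5% called beside 63.9% of all genes, and the median log2 fold change was 0.10. PEX11A, which takes part in elongation and division of peroxisomes, was at 5.54, 5.58, 5.05 and 6.54 CPM in 2D-primed and at 10.2, 7.53, 8.75 and 10.1 CPM in 3D-primed libraries. Its groups did not overlap (log2 fold change 0.69, SE 0.119, adjusted p = 5.0e-04). PEX10, of the membrane ubiquitin ligase that recycles the import receptor, was at 26.8, 26.6, 25.8 and 26.6 CPM and at 41.6, 39.3, 37.9 and 39.2 CPM. These groups were tight and far apart (log2 fold change 0.58, SE 0.0415, adjusted p = 1.1e-06). PEX2, of the same ligase, had 15 to 16.8 and 12.6 to 16.7 CPM and did not pass (log2 fold change -0.08, adjusted p = 0.43), so that the ratio of PEX10 to PEX2 per kilobase was 2.47 ± 0.127 in 2D-primed against 3.94 ± 0.517 in 3D-primed libraries.

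The matrix import receptor and its docking partner were lower. PEX5, the receptor for proteins with the common carboxy-terminal signal, was at 54.3, 54.1, 55.7 and 58.1 CPM in 2D-primed and at 46.1, 45.3, 46.5 and 43.4 CPM in 3D-primed libraries. No value overlapped, and the log2 fold change was -0.29 (SE 0.0397, adjusted p = 9.2e-05). PEX14, of the docking complex, had 25.7 to 29.6 and 23 to 24.6 CPM (log2 fold change -0.20, SE 0.053, adjusted p = 0.0064). PEX13, also of the docking complex, had 49 to 52.5 and 49.6 to 59.2 CPM, overlapped and did not pass (log2 fold change 0.10, adjusted p = 0.12). PEX6, an ATPase that draws the receptor out of the membrane, was at 16.4, 16.5, 17.5 and 16.3 CPM and at 21.2, 18.4, 19.8 and 20.8 CPM. It was higher in all 3D-primed libraries (log2 fold change 0.27, SE 0.0589, adjusted p = 0.0024), and by 0.42 with GC and length adjusted for. PEX26, its membrane anchor, had 33.2 to 36.7 and 34.1 to 38.3 CPM and did not pass (log2 fold change 0.04, adjusted p = 0.53), but it did with that adjustment (0.32, adjusted p = 0.0013).

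Of the peroxins that place membrane proteins, PEX3 had 10.7 to 13.8 and 13.8 to 14.7 CPM and was called higher with groups that all but touched (log2 fold change 0.26, SE 0.0828, adjusted p = 0.018). The PEX3 call was lost with GC and length adjusted for (0.04, adjusted p = 0.73) and without 2D-primed replicate 1 or 3 (0.22 and 0.21). PEX19, the gene of the list with the highest level per kilobase, was at 66.8, 64.6, 64.8 and 63 CPM and at 74, 70, 67.7 and 66 CPM. Its groups overlapped, and it did not pass (log2 fold change 0.10, SE 0.0433, adjusted p = 0.066). PEX16 had 9.07 to 10.9 and 10.3 to 11.2 CPM (log2 fold change 0.07, adjusted p = 0.40). PEX7, the receptor of the amino-terminal import signal, had 0 to 6 counts a library and was not tested. RXRB, which most cells express, is likewise listed near 0, so a low value need not mean an absent transcript. Summed per kilobase, the 11 PEX genes stood at 92.8 ± 1.89 and 97.8 ± 2.06 CPM per kb, which overlapped.

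**Figure D4:**
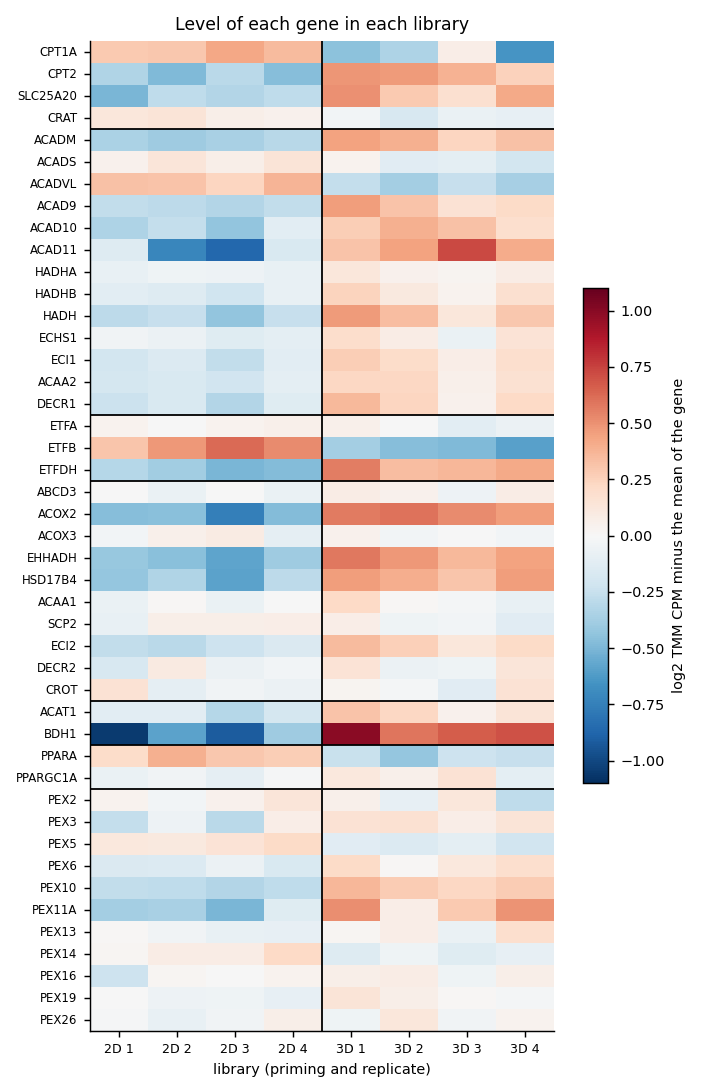
Heat map of the 45 genes tested, by list from the carnitine shuttle at the top to the PEX genes at the bottom, in the 8 libraries. Colour is the log2 TMM CPM of a library minus the mean of that gene over all libraries, red above and blue below, and the vertical line parts 2D-primed from 3D-primed. ACAD11, BDH1 and ACOX2 show the strongest contrast towards red in 3D-primed cells, and ETFB and CPT1A towards blue.

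Genes of fatty acid uptake and activation were mostly higher in 3D-primed cells, and whether more fatty acid reached oxidation was not tested. Of the 17 tested, 12 were called higher and 3 lower, or 70.6% and 17.6%, beside 32.4% and 31.6% of all genes tested. ACSS2, which activates acetate, had 34.3 to 44.4 CPM in 2D-primed and 182 to 210 CPM in 3D-primed libraries (log2 fold change 2.26, SE 0.0823, adjusted p = 2.4e-08). ACSM3, a medium-chain synthetase, had 25.9 to 30.9 and 113 to 137 CPM (2.17, SE 0.0709), FABP1, the liver fatty acid binding protein, 252 to 309 and 950 to 1133 CPM (1.88, SE 0.0741), and ACSL3, a long-chain synthetase, 177 to 196 and 623 to 670 CPM (1.77, SE 0.0444). The groups did not overlap for 14 of the 17 genes tested, these 4 among them, beside 59.8% of all genes tested.

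Among 20 other peroxisomal genes tested, 11 were called higher and 4 lower, or 55% and 20%, beside 32.4% and 31.6% of all genes tested. PHYH, which starts the alpha-oxidation of phytanic acid, had 40.9 to 47.3 CPM in 2D-primed and 78.9 to 93.1 CPM in 3D-primed libraries (log2 fold change 0.93, SE 0.0605). PXMP2 (0.69), PECR (0.68) and ABCD4 (0.66) were also called higher.

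Of 16 PPARA target genes tested outside the 47, 9 were called higher and 4 lower, and FABP1, given above, is among them. These are 56.2% and 25%, beside 32.4% and 31.6% of all genes tested. TXNIP, an inhibitor of thioredoxin, had 18.4 to 32.7 and 5.44 to 6.9 CPM (log2 fold change -1.89, SE 0.178, adjusted p = 6.7e-06), and ANGPTL4, an inhibitor of lipoprotein lipase, 22.3 to 38.9 and 6.43 to 14.4 CPM (-1.72, SE 0.231, adjusted p = 8.8e-05). The targets with large changes thus went in both directions. PDK4, a kinase that restrains pyruvate dehydrogenase, had under 10 counts in every library and was not tested.

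Of 21 genes tested that control fat oxidation, 7 were called higher and 10 lower. These are 33.3% and 47.6%, beside 32.4% and 31.6% of all genes tested, so the higher share was near that of all genes. PRKAA2, a catalytic subunit of the energy sensor AMPK, had 62.1 to 68.5 and 28.3 to 33.4 CPM (log2 fold change -1.12, SE 0.0621, adjusted p = 2.1e-07). ACACA, which makes the malonyl-CoA that inhibits CPT1A, had 53.2 to 69.6 and 126 to 137 CPM (1.09, SE 0.0766, adjusted p = 9.8e-07). PPARG had 48.2 to 58.3 and 29.1 to 40.1 CPM (-0.66, SE 0.0942). The groups did not overlap for 15 of the 21 genes tested, these 3 among them, beside 59.8% of all genes tested.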

How the data were processed

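RNA of 4 2D-primed and 4 3D-primed HepG2 libraries was measured. The authors deposited estimated counts per gene, not scaled for depth, obtained with Salmon on human cDNA (GRCh38) and summed with tximport, whose setting is not given in the sources used here. The values are whole numbers and were used as they are. Groups and replicate numbers follow the labels, which name no separate batches, so p-values measure only the spread between these libraries, which may be technical.

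Identifiers were matched to GENCODE symbols (78.0%, carrying 97.4% of counts). Genes that reached 10 counts in 2 or more libraries were tested with edgeR 4.0.16 (TMM, quasi-likelihood test) in R 4.3.3, with Benjamini-Hochberg adjustment and a threshold of 0.05, after the pipeline was tested on simulated data. SE is the fold change divided by the root of F. Levels per kilobase use the canonical transcript length, which is unusually long for PEX26.

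The members and lists were chosen with earlier results of these data known. Values in every library are given for lists with 4 or fewer tested members, and otherwise for the 4 called members with the largest change and the member highest per length. Of the related lists, up to 4 called genes with an absolute log2 fold change of at least 0.58 and a mean of at least 1 CPM are named, with OXCT1 and PDK4 besides. A few genes covered by this rule are left out of the text but were kept in all tests and counts. RXRB and the marker genes were named after their values were seen. Alternatives were DESeq2 1.42.0, limma-voom (limma 3.58.1), other scalings and filters, GC and length offsets (loess span 0.5), a replicate block, and leaving out each library.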

Additional observations from a re-analysis of the deposited data

Results flagged for a closer look

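Within groups of 4 libraries, 6 of 90 groups tested held 1 library far from the other 3, judged by Dixon's test of the gap over the range, and chance flags about 1 in 20 groups. ACOX2 was low in 2D-primed replicate 3, at 13.5 CPM where the nearest library was at 16.3 CPM. SCP2 was low in 2D-primed replicate 1 (122 CPM, nearest 135 CPM), and PPARA was low in 3D-primed replicate 2 (75.8 CPM, nearest 85.5 CPM). PEX6 was high in 2D-primed replicate 3 (17.5 CPM, nearest 16.5 CPM). PEX16 was low in 2D-primed replicate 1 (9.07 CPM, nearest 10.6 CPM) and in 3D-primed replicate 3 (10.3 CPM, nearest 11.1 CPM). The calls of ACOX2, PPARA and PEX6 were kept, and SCP2 and PEX16 stayed uncalled, without each of these libraries.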

How the results depend on the processing

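Of 32 called members, 28 kept direction and call in 17 alternatives and none changed direction. CRAT, HADHB, ECHS1 and PEX3 lost the call in at least 1. Under GC and length offsets the median log2 fold change was 0.11 for all members and 0.23 for the mitochondrial genes, and 1 peroxisomal gene, SCP2, was called lower. With upper-quartile scaling the PEX median was 0.15. Reversed signs, all in uncalled members, were ABCD3 (-0.06) and CROT (-0.11) under those offsets and ACOX3 with total counts (0.01) or the upper quartile (0.04). Leaving out 1 library gave ranges of -0.05 to 0.02 for ACOX3, -0.03 to 0.08 for CROT, -0.01 to 0.10 for ACAA1 and -0.002 to 0.06 for PEX26. The cause was not tested. Uncalled members that passed in at least 1 alternative were ETFA, SCP2, PEX26, ABCD3, PEX13, PEX19 and PPARGC1A. Genes called over the whole table ran from 8357 without 2D-primed replicate 3 to 9070 with the upper quartile, beside 8916. Same-numbered libraries deviated from their group means with correlations of -0.0433, -0.014, 0.0574 and 0.00617, so no shared deviation by number was seen. Whether same-numbered cultures were handled together cannot be told from these values. With the replicate number as a block 8490 genes were called, and the counts of members stayed at 24 higher and 8 lower. With 4 libraries a group, small differences in low genes such as CROT or PEX16 may not be detectable.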

Other observations

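A pattern was noticed after the values were seen. In CPT1A and in ANGPTL4, PLIN2 and VNN1, PPARA target genes outside the 47, replicate 3 was the highest and replicate 4 the lowest of the 3D-primed libraries, while replicates 1 and 2 changed places between CPT1A and the others. CPT1A was at 74.7 and 45.3 CPM in replicates 3 and 4, ANGPTL4 at 14.4 and 6.43 CPM, PLIN2, a coat protein of lipid droplets, at 632 and 422 CPM, and VNN1, a pantetheinase, at 20.1 and 7.31 CPM. All 4 genes were called lower in 3D-primed cells, with log2 fold changes of -0.66, -1.72, -0.86 and -0.88. Their groups did not overlap, which held for 59.8% of all genes tested. PPARG (40.1 and 29.1 CPM) and CD68 (39.3 and 29.8 CPM), a lysosomal protein gene that is no PPARA target of the list, had the same highest and lowest library, so the pattern is not particular to fat oxidation. The PPARA target TXNIP, also called lower, did not have it, with replicate 1 highest at 6.9 CPM, nor did PPARA, with 86.9 CPM in replicate 3 and 75.8 CPM in replicate 2. ACSL5, a long-chain acyl-CoA synthetase also named after its values were seen, was lower in 3D-primed cells (108 to 124 CPM against 176 to 206 CPM, log2 fold change -0.70, SE 0.0569, adjusted p = 2.5e-06), whereas ACSL1 (0.70), ACSL3 (1.77) and ACSL4 (0.91) were higher.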
